A study of Homo sapiens with 2 samples.

Results

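The genes described here are 33 genes of autophagy and the lysosome, taken by name from the 15603 genes of the deposited table. They cover the steps from the first kinase complex to the enzymes that digest the cargo. RNA was sequenced from A172, an established human glioblastoma cell line, in 2 cultures. The first was a clone labelled A172-r#6, resistant to temozolomide (TMZ, the alkylating drug used against this tumour), selected with that drug and labelled as grown with it. The second was the parental A172 line, labelled as grown without it. Each culture gave 1 library from a stranded mRNA kit, so the effects of being a single clone, of the selection and of the drug cannot be told apart, and no difference below has a replicate check.

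Autophagy encloses cytoplasm in a double membrane, the autophagosome, and delivers it to the lysosome for digestion. A kinase complex around ULK1 starts the process, a lipid kinase complex around BECN1 marks the membrane, and a conjugation system attaches small ubiquitin-like proteins of the ATG8 family to it. Receptors such as p62, the product of SQSTM1, bind both the cargo and the ATG8 proteins and are digested with the cargo. The transcription factors TFEB and TFE3 activate many lysosomal and autophagy genes, through a DNA element named CLEAR (coordinated lysosomal expression and regulation). In glioma cells, temozolomide is known to induce autophagy. RNA levels do not measure the flow of cargo through the pathway.

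Levels are FPKM, a count of fragments scaled to transcript length and library depth, as the authors deposited them. The FPKM summed to 323932 in the resistant and 299594 in the parental library, and the depth behind them is unknown. Of the marker genes for glioma and mesenchymal cells, VIM had 804 FPKM in the resistant and 632 in the parental library, and CD44 had 161 and 83.1. SPARC had 3856 FPKM in the resistant and 2854 in the parental library, and GFAP was not among the listed genes. Nestin, NES, had 5.08 FPKM in the resistant and 33.7 in the parental library. The 4 measured leukocyte and endothelial markers (PTPRC, CD68, PECAM1 and CDH5) were at 0.485 FPKM or less in the resistant and at 1.83 or less in the parental library. The 3 measured epithelial markers summed to 1609 FPKM in the resistant and 605 in the parental library. KRT8 (905 against 213) and KRT18 (702 against 391.7) made up nearly all of that sum, and EPCAM had 0.669 in the resistant and 0.797 in the parental library. In bulk RNA a different share of cells expressing a gene and a different amount of RNA per cell cannot be told apart, and the part of the keratin difference in the results below was not tested.

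The comparison asks how these genes differ between the resistant clone and the line it came from. The difference of a gene is given as log2 of (resistant FPKM + 1) over (parental FPKM + 1), so a positive value means a higher level in the resistant library. A gene was called when this fold was at least 2 in either direction, among the 13937 genes with 1 FPKM or more in either library. All 33 members passed this filter, and none was listed at 0. In the resistant library 3 members were called higher (MAP1LC3B, CTSD and SQSTM1) and none lower. That is 9.09% of the members called higher, where 4.59% of all tested genes were called higher and 3.82% lower. With both libraries rescaled to the mean of their sums, an alternative chosen after seeing the data, all tested genes split into 506 higher and 659 lower, against 640 and 532 as deposited. The median log2 fold was 0.14 over the members and 0.04 over all tested genes. Of the 33 log2 folds, 19 were positive and 14 negative.

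**Figure D1:**
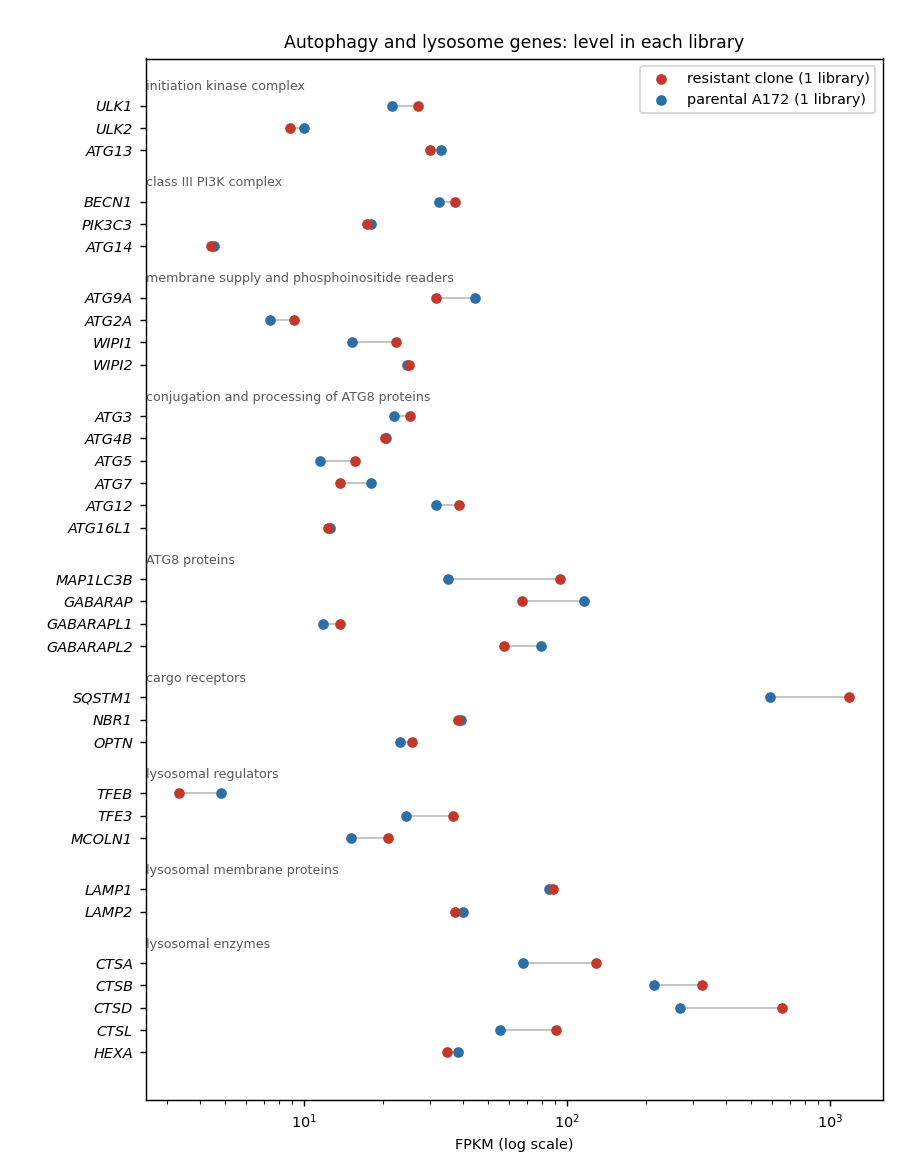
FPKM of the 33 genes on a log axis, grouped by role, with 1 point for the resistant clone and 1 for the parental line (1 library each). SQSTM1, CTSD and CTSB are the highest in both libraries, and the wide gaps lie among the ATG8 genes, SQSTM1 and the cathepsins.

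The members were mostly well expressed. Their median was 30.0 FPKM in the resistant and 24.5 in the parental library, where all listed genes had medians of 7.14 and 6.84. SQSTM1 was the highest and TFEB the lowest member in the resistant library, 353-fold apart. In the parental library SQSTM1 and ATG14 marked the ends, 129-fold apart. The 3 highest members were the same in both libraries, in the order SQSTM1, CTSD and CTSB.

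The 16 members for initiation, the lipid kinase complex, membrane supply and conjugation differed little. This set leaves out the ATG8 genes, which are given below. As deposited, none of the 16 reached even a 1.5-fold difference in either direction, a size that 14.5% of all tested genes reached upward and 12% downward. Their median log2 fold was 0.01, with 8 positive and 8 negative, and their summed level was 339 FPKM in the resistant and 327 in the parental library.

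In the initiation complex, the kinase gene ULK1 had 27.0 FPKM in the resistant and 21.5 in the parental library. Its paralog ULK2 had 8.85 and 9.96, and ATG13, the adaptor that ties the kinase to its partners, had 30.01 and 32.96. The level of ULK1 was 3.05 times that of ULK2 in the resistant library and 2.16 times in the parental one. In the lipid kinase complex, the catalytic subunit gene PIK3C3 had 17.4 FPKM in the resistant and 17.9 in the parental library. BECN1, which holds the complex together, had 37.3 and 32.6. ATG14, which directs the complex to autophagosome formation, had 4.43 and 4.54, and was among the lowest members in both libraries.

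Among the genes for membrane supply, ATG9A, a lipid scramblase carried on vesicles, had the lowest log2 fold of the 16, at -0.48, with 31.6 FPKM in the resistant and 44.5 in the parental library. With both libraries rescaled to the mean of their sums it came to -0.59, past 1.5-fold. ATG9A shares 1833 exon bases on its own strand with AC068946.2, which is not among the listed genes. The lipid transfer protein gene ATG2A had 9.16 and 7.38. WIPI1, which reads the lipid made by PIK3C3, had the highest log2 fold of the 16, at 0.52, with 22.2 FPKM in the resistant and 15.2 in the parental library. Its paralog WIPI2 had 25.02 and 24.5. WIPI1 shares 828 exon bases with ARSG on the opposite strand, which had 2.84 FPKM in the resistant and 1.09 in the parental library.

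In the conjugation system, ATG7, the activating enzyme, had 13.6 FPKM in the resistant and 18.0 in the parental library, and ATG3, the enzyme that passes ATG8 proteins to the lipid, had 25.2 and 21.9. ATG12 had 38.6 and 31.6 FPKM and its partner ATG5 had 15.6 and 11.5, which gave log2 folds of 0.28 and 0.41. ATG16L1, which brings that pair to the membrane, had 12.3 and 12.5, and the protease gene ATG4B, whose product trims ATG8 proteins, had 20.3 and 20.4. The 6 genes of this system thus lay on both sides of 0, with ATG7 lowest at -0.37 and ATG5 highest. ATG7 shares 1596 exon bases with VGLL4 on the opposite strand, which had 13.5 FPKM in the resistant and 19.0 in the parental library.

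**Figure D2:**
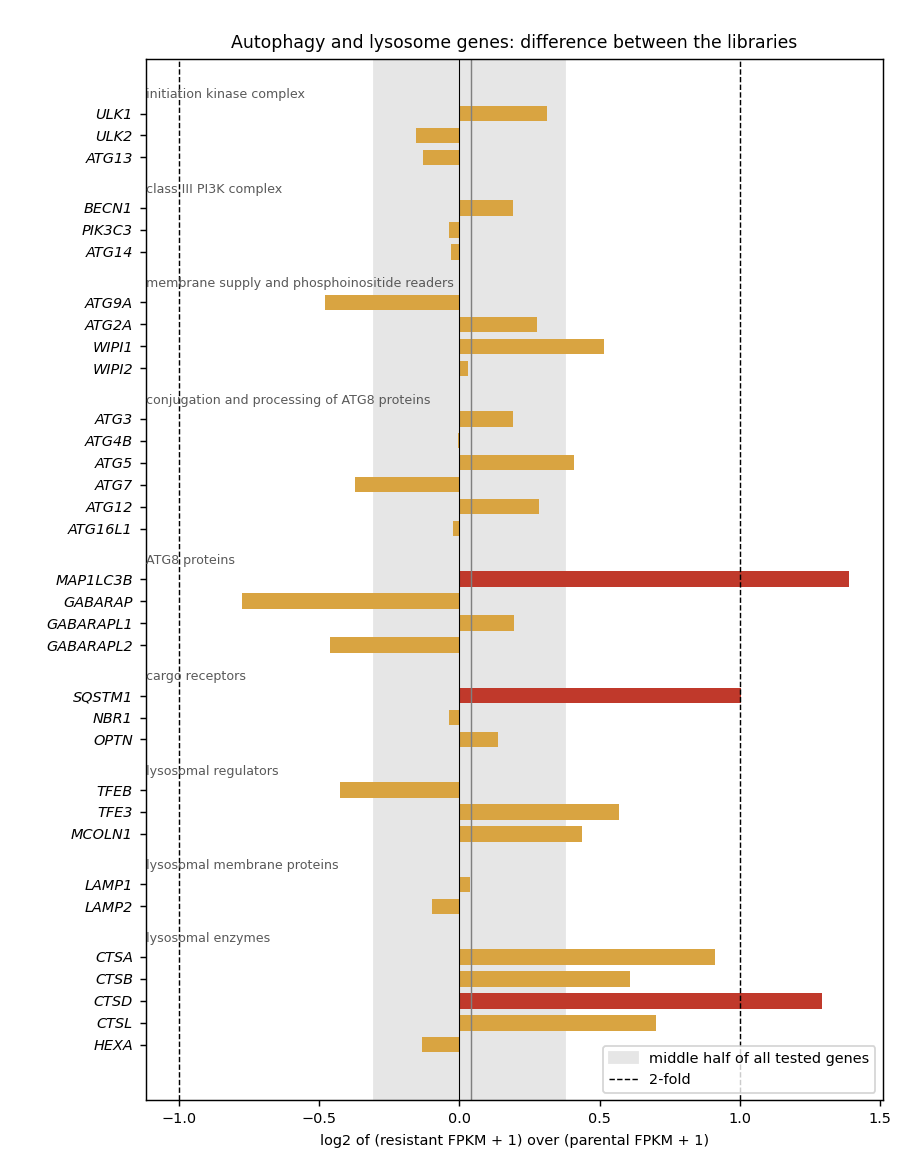
Log2 fold of resistant over parental (FPKM + 1) for the 33 genes, by role. Red bars passed 2-fold (dashed lines), the grey band is the interquartile range of all tested genes and the thin grey line their median of 0.04. The red bars are MAP1LC3B, SQSTM1 and CTSD, and GABARAP has the most negative bar, at -0.78.

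The ATG8 genes moved apart from each other. MAP1LC3B, which encodes the marker protein LC3B, had 94.1 FPKM in the resistant and 35.3 in the parental library, the highest log2 fold of all members at 1.39. GABARAP had 67.5 and 116, the lowest log2 fold of all members at -0.78, which does not reach 2-fold. GABARAPL2 had 57.3 FPKM in the resistant and 79.2 in the parental library (log2 fold -0.46), and GABARAPL1 had 13.6 and 11.8 (0.19).

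The order of the ATG8 genes differed between the libraries. MAP1LC3B was the highest of the 4 in the resistant library, while in the parental one GABARAP and GABARAPL2 lay above it. The level of MAP1LC3B was 1.39 times that of GABARAP in the resistant library and 0.304 times in the parental one. The summed FPKM of the 4 genes was 232 in the resistant and 243 in the parental library, a ratio of 0.958. Within that sum MAP1LC3B made up 40.5% in the resistant and 14.5% in the parental library. GABARAP made up 29.02% and 47.9%, and GABARAPL2 24.6% and 32.7%. Among the ATG8 genes outside the 33, MAP1LC3A, named here to complete the family, had 11.1 FPKM in the resistant and 9.69 in the parental library, while MAP1LC3C was called lower, at 1.47 and 14.5 (log2 fold -2.65).

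**Figure D3:**
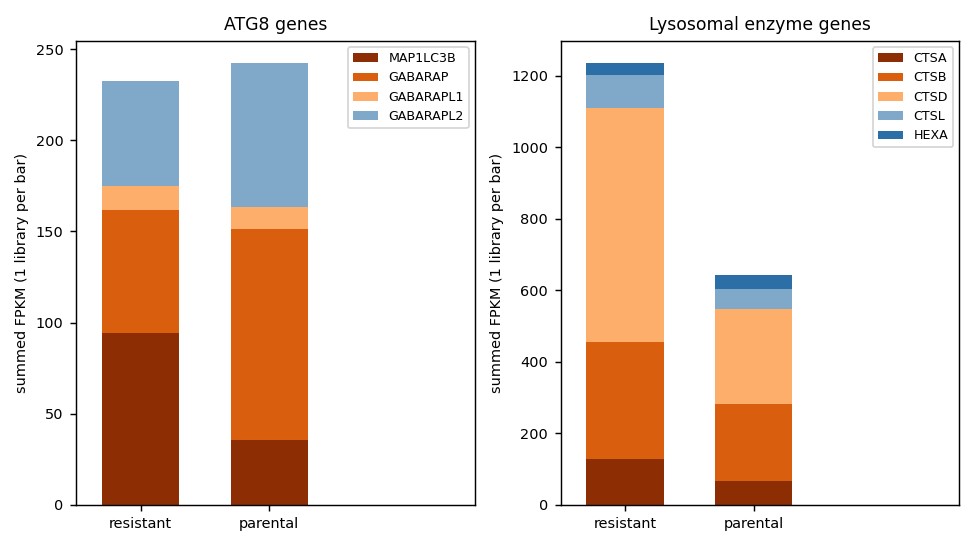
Summed FPKM of the 4 ATG8 genes (left) and the 5 lysosomal enzyme genes (right), stacked by gene, in the resistant and the parental library. The ATG8 stacks are of nearly equal height (232 and 243 FPKM) with a larger MAP1LC3B share in the resistant library, and the enzyme stack is 1236 FPKM in the resistant and 642 in the parental library.

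Some of these values carry limits from the annotation. Part of the MAP1LC3B transcript (601 bases, 22.4% of its length) matches the near-identical copy MAP1LC3B2 at 97.3% identity, so reads there can be placed on either gene. MAP1LC3B2 is not among the listed genes. GABARAPL1 matches AC018946.2, also not listed, at 92.6% identity over 1526 bases, 66.5% of its transcript. GABARAP shares exon sequence on its own strand with AC120057.2, a gene listed at 4.13 FPKM in the resistant and 2.99 in the parental library.

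Of the cargo receptors, SQSTM1 stood apart in both level and difference. It had 1180 FPKM in the resistant and 588 in the parental library, which put it at percentile 99.9 of the listed genes in both. Its fold of 2.003 (log2 fold 1.003) lay just past the threshold, and the call was lost under 5 other settings, with folds of 1.85 to 1.997. NBR1, a receptor of similar domain layout, had 38.3 FPKM in the resistant and 39.4 in the parental library. OPTN, a receptor known from the clearance of mitochondria and bacteria, had 25.7 and 23.2. SQSTM1 RNA was thus 30.8 times as abundant per length as NBR1 RNA in the resistant library and 14.9 times in the parental one. SQSTM1 shares exon sequence with MRNIP on the opposite strand, which had 8.31 FPKM in the resistant and 14.0 in the parental library.

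The lysosomal regulators were all below 2-fold. TFEB had 3.34 FPKM in the resistant and 4.84 in the parental library (log2 fold -0.43), and TFE3 had 36.7 and 24.4 (0.57). The level of TFE3 was 11.0 times that of TFEB in the resistant library and 5.05 times in the parental one. MITF, another factor of the family, had 8.22 and 7.13 FPKM. MCOLN1, the calcium channel of the lysosomal membrane through which the phosphatase that activates TFEB is switched on, had 20.7 FPKM in the resistant and 15.1 in the parental library (0.44).

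Of the 5 lysosomal enzyme genes, 4 had a positive log2 fold. All 4 cathepsin genes among the members were at least 1.5-fold higher in the resistant library, as were 14.5% of all tested genes. CTSD also passed 2-fold, as did 4.59% of all tested genes on the higher side. The aspartic protease gene CTSD had 657 FPKM in the resistant and 267 in the parental library (log2 fold 1.29). CTSA, a carboxypeptidase that also protects other lysosomal enzymes, had 128 and 67.7 (0.91), just under the threshold. The cysteine proteases CTSL, with 90.5 FPKM in the resistant and 55.2 in the parental library, and CTSB, with 326 and 214, had log2 folds of 0.70 and 0.61. Under the 4 other scalings all 4 cathepsins kept a positive log2 fold, and that of CTSB lay between 0.50 and 0.57, under 1.5-fold. HEXA, a subunit of the enzyme that degrades GM2 ganglioside, had 35.02 and 38.5 (-0.13).

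The 4 cathepsins together had 1201 FPKM in the resistant and 604 in the parental library, 1.99 times as much. CTSD made up 53.1% of the enzyme sum in the resistant and 41.6% in the parental library. The structural membrane proteins did not differ in the same way. LAMP1 had 87.8 FPKM in the resistant and 85.5 in the parental library, and LAMP2 had 37.3 and 40.0. The level of CTSD was 7.48 times that of LAMP1 in the resistant library and 3.13 times in the parental one. CTSD shares 1304 exon bases on its own strand with AC068580.4, listed at 14.1 FPKM in the resistant and 7.23 in the parental library.

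Promoter sequence was read for 30 of the 33 members from RefSeq (GRCh38.p14), from 250 bases before to 50 after the start given there. For some members, among them ATG5, BECN1, ATG16L1, MAP1LC3B, CTSA, CTSD and CTSL, this window lay inside the gene as GENCODE places it. The ATG5 window had the lowest GC content, 27.7%. Such windows may hold sequence that is not promoter, and the counts below include them. A match is a description of the letters and not a binding site. The CLEAR core TCACGTGA was searched with the E-box CACGTG, which it contains, on both strands. The CLEAR core was found in 4 of 30 member promoters (ATG3, LAMP1, MCOLN1 and CTSA) and in 0.980% of 35116 promoters. CACGTG was found in 6 of 30 (also in CTSD and ATG14) and in 7.26% of all. The core of the antioxidant response element, TGACNNNGC, was found in 5 (MAP1LC3B, CTSD, CTSA, CTSL and LAMP1) and in 13.3% of all promoters. It can overlap CACGTG. The core of the C/EBP-ATF response element, TGATGNAA, was found in none of the 30 and in 3.62% of all. The members' windows had a median GC content of 66.5%, where all promoters had 58.7%.

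The 250 bases before the start are shown for 4 genes, because promoters with the same element lay upstream of genes with different folds. Capitals mark every match to a motif named above that lies wholly before the start. CTSA (log2 fold 0.91) and MCOLN1 (0.44) hold the CLEAR core, as does LAMP1, whose level was nearly equal in both libraries (0.04). MAP1LC3B (1.39) holds no E-box. The windows are chr20:45891085-45891334, plus strand, for CTSA and chr19:7522374-7522623, plus strand, for MCOLN1. They are chr13:113296989-113297238, plus strand, for LAMP1 and chr16:87392086-87392335, plus strand, for MAP1LC3B.
CTSA: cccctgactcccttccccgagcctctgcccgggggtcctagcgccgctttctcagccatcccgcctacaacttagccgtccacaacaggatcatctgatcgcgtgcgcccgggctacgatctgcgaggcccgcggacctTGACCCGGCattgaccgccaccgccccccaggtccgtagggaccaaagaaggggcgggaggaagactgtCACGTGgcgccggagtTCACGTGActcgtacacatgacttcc
MCOLN1: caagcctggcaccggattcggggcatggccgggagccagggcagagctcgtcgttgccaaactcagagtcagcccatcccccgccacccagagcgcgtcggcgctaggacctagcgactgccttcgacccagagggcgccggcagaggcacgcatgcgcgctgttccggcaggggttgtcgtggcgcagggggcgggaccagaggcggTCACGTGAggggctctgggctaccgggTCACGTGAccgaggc
LAMP1: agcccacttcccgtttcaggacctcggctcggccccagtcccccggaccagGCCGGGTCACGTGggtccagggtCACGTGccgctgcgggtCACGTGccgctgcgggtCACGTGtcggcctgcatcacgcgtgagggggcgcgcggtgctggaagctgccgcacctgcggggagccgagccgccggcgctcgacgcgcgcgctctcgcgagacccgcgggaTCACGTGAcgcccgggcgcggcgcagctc
MAP1LC3B: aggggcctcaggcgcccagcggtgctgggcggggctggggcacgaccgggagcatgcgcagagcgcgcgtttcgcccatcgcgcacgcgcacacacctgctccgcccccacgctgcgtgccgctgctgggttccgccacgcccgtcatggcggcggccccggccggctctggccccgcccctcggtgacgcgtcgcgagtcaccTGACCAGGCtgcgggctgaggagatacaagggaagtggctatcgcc

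The first CLEAR core of LAMP1 starts 29 bases before the gene's start and the second spans the start, so its letters are not all shown. In CTSA the core starts 26 bases before the start, and in MCOLN1 the 2 cores start 42 and 15 bases before it. The folds of the 4 members with a CLEAR core ran from 0.04 for LAMP1 to 0.91 for CTSA, with ATG3 at 0.19. SQSTM1, called higher, holds no match to any of the 4 motifs in its window.

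Other genes of the pathway were read from 8 lists of 192 gene entries, of which 178 passed the filter. In the resistant library 6 of them were called higher and 3 lower, 3.37% and 1.69% of them, where 4.59% of all tested genes were higher and 3.82% lower. Their median log2 fold was 0.09. Among 27 other autophagosome genes, 1 was higher and 2 lower (median 0.03). EPG5, a tether for fusion of autophagosomes with lysosomes, had 22.3 FPKM in the resistant and 9.49 in the parental library. AMBRA1, a scaffold that promotes the BECN1 and ULK1 complexes, had 11.3 and 28.5 (log2 fold -1.26), and MAP1LC3C was the other lower gene. Among 20 other receptors and regulators of selective autophagy, only RETREG1, a receptor for parts of the endoplasmic reticulum, was called, at 16.6 FPKM in the resistant and 5.65 in the parental library. BNIP3, a mitochondrial receptor, had 7.99 and 3.89 and missed the threshold with the pseudocount of 1, although its plain FPKM ratio was 2.05.

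The signalling genes upstream held 3 of these calls, each higher in the resistant library. Of 29 genes of mTORC1, the kinase complex that represses autophagy from the lysosomal surface, and its regulators, 2 were higher and none lower (median 0.11). Those 2 made up 6.90% of the list, where 4.59% of all tested genes were called higher. RRAGC, a small GTPase that recruits mTORC1 to the lysosome, had 30.0 FPKM in the resistant and 11.8 in the parental library. SESN2, a leucine sensor that restrains mTORC1, had 25.4 and 10.6. The mTORC1 inhibitor gene DEPTOR, chosen after its values were seen, had 1.28 FPKM in the resistant and 3.51 in the parental library. Its log2 fold of -0.98 lay just short of the threshold, and it was called lower with a pseudocount of 0.1 and under each of the 4 other scalings. RHEB and DDIT4, also chosen after their values were seen, fell short on the higher side. RHEB had 78.8 FPKM in the resistant and 39.8 in the parental library (log2 fold 0.97), and DDIT4 had 131 and 70.0 (0.89). At 1.5-fold, 6 of the 29 genes of this list were higher and 2 lower, where 14.5% of all tested genes were higher and 12% lower. Of 7 genes of the energy-sensing kinase AMPK and its activator LKB1, 1 was higher (14.3%) and none lower (median 0.44). That gene was the regulatory subunit gene PRKAG2, at 66.1 FPKM in the resistant and 25.6 in the parental library, and PRKAB2 had 9.22 and 4.78. None of the 4 measured genes of the MITF and folliculin list was called (median 0.22), with FNIP1 at 40.5 and 31.9 FPKM and FNIP2 at 8.09 and 6.61.

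In the rest of the lysosome, 1 of 43 other enzymes and activators was higher (2.33%) and 1 lower (2.33%), with a median of 0.07. The sulfatase gene GALNS, chosen after its values were seen, had 9.17 FPKM in the resistant and 19.2 in the parental library (log2 fold -0.99), and it was called lower as well with a pseudocount of 0.1 and under the 4 other scalings. ACP5, a tartrate-resistant acid phosphatase, had 13.5 FPKM in the resistant and 5.40 in the parental library, and the cysteine cathepsin CTSO had 6.05 and 14.5. Of the 8 tested cathepsins outside the 33, 4 had a positive and 4 a negative log2 fold, so cathepsin genes as a whole did not share a direction. At 1.5-fold, 1 of these 8 was higher and 4 lower, where 14.5% of all tested genes were higher and 12% lower. CTSC had 11.9 FPKM in the resistant and 6.36 in the parental library. Of the other positive genes, CTSZ had 69.5 and 59.6, CTSH 10.4 and 9.22, and CTSF 3.17 and 2.33. CTSK had 2.06 and 4.19, CTSS 2.05 and 3.95, and CTSV 2.80 and 5.09. These genes were chosen after their values were seen. None of 20 subunits of the vacuolar ATPase, the proton pump that acidifies the lysosome, was called (median -0.06). ATP6V0E2 had 24.8 and 40.5 FPKM and ATP6V1E2 had 3.71 and 6.62. None of 28 other membrane and sorting genes was called (median 0.22), with TMEM192 at 18.8 and 10.5 FPKM and the amino acid transporter gene SLC36A1 at 22.05 and 12.8. With a pseudocount of 0.1, 2 vacuolar ATPase subunits were called lower and 1 membrane and sorting gene higher. With a pseudocount of 5 the calls of EPG5, SESN2, ACP5 and CTSO were lost.

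**Figure D4:**
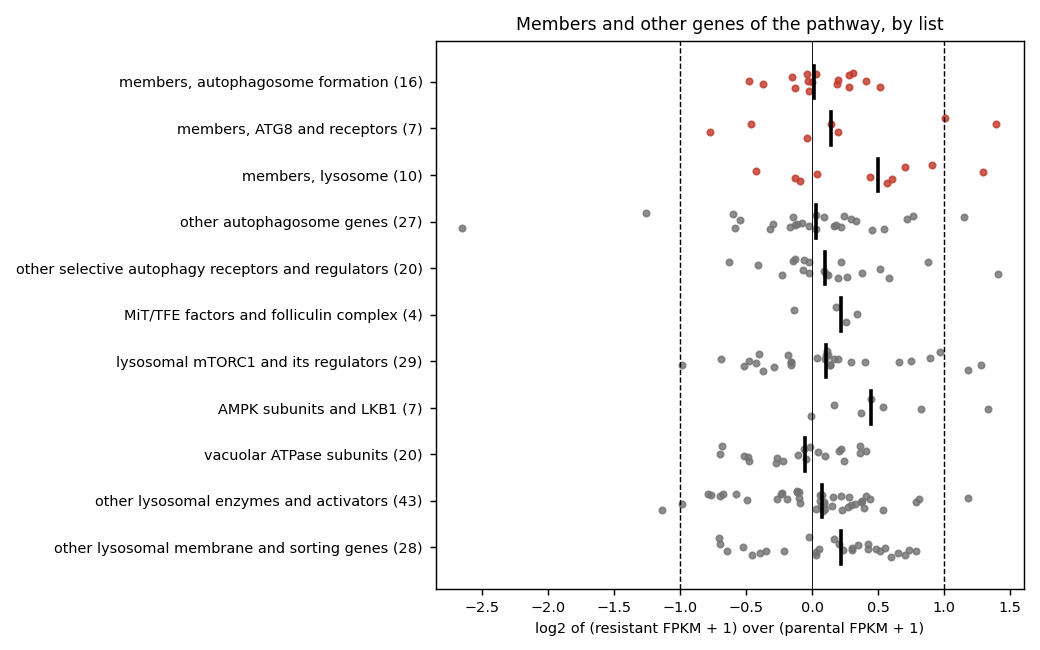
Log2 fold of resistant over parental (FPKM + 1) for each gene, by list, with the 33 members in red, genes of 8 other lists in grey, list medians as black bars and 2-fold as dashed lines. The 16 members grouped under autophagosome formation, without the ATG8 genes, lie near 0 (median 0.01). The lowest grey point is MAP1LC3C at -2.65.

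The members lie on 19 chromosomes, with 5 of them on chromosome 17. Each was set beside the 5 nearest tested genes on either side, with GRCh38 positions from GENCODE release 29. The medians of these neighbours ran from -0.55 to 0.60. MAP1LC3B (chromosome 16, 87383995 to 87404779, plus strand) had a log2 fold of 1.39, against 0.12 for its neighbours. CTSD (chromosome 11, 1752752 to 1764573, minus strand) had 1.29 against 0.10, and SQSTM1 (chromosome 5, 179806398 to 179838078, plus strand) had 1.003 against -0.05. For CTSA, CTSL and CTSB the neighbour medians were 0.13, -0.01 and -0.08. These 6 genes are those at least 1.5-fold higher as deposited, so that their place above neighbours near 0 follows from that choice.

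Of the other members, some lay close to their neighbours and some did not. ULK1 had 0.31, as did its neighbours, and ATG5 had 0.41 against 0.44. GABARAP (chromosome 17, 7240014 to 7242770, minus strand) had -0.78 against -0.30, with 2 of its neighbours called lower. LAMP1 had 0.04 where its neighbours on chromosome 13 had a median of -0.51. GABARAPL2 and TFEB lay below theirs, at -0.46 against 0.14 and -0.43 against 0.21. Over all members, 19 of 33 lay above their neighbour median.

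**Figure D5:**
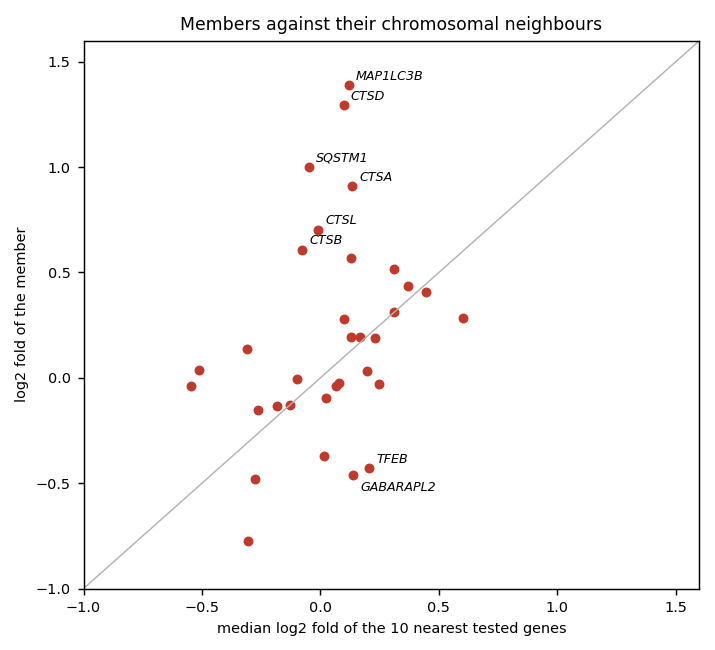
Log2 fold of each member (vertical) against the median log2 fold of its 10 nearest tested genes (horizontal), with the line of equal values. MAP1LC3B, CTSD, SQSTM1, CTSA, CTSL and CTSB lie above the line by more than 0.6, and TFEB and GABARAPL2 below it by 0.6 or more.

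The authors' deposited table also holds q-values of the authors' own comparison, whose test is not stated. With 1 library each, such a test compares the libraries and not the conditions. In the authors' deposited table, q-values under 0.05 were held by 5 members, all higher in the resistant library, where 5.42% of tested genes were higher and 4.07% lower at that threshold. The lowest of these q-values in the authors' deposited table was 1.95e-06, for CTSD, followed by 0.000202 for CTSB, 0.00197 for MAP1LC3B, 0.00265 for CTSA and 0.00508 for SQSTM1. Of the members above that threshold in the authors' deposited table, GABARAP had a q-value of 0.0739, ATG9A 0.0842, TFE3 0.127 and CTSL 0.154.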

How the data were processed

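RNA of 1 resistant and 1 parental culture of A172 was sequenced after a stranded mRNA library preparation, per the labels' protocols. What aligned and quantified the reads, on which build and annotation, and whether strand was used, is not given in the sources used here. Per the file headers, the deposited values are FPKM of each library, with p-values and q-values of the authors' comparison. Depth is unknown. Low FPKM times length of single-exon genes showed no clear steps of whole fragments. At the best of many step sizes tried, 32.9% of such values in the resistant and 32% in the parental library were within 0.1 of whole numbers. The chance share is 20% for a step size fixed in advance. The best of many can exceed it, so these shares alone do not decide whether steps exist. No counts were therefore recovered.

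Folds used a pseudocount of 1, which understates changes of low genes, a filter of 1 FPKM in either library and a threshold of 2-fold. No p-value was computed, since 1 library per group leaves no replicate spread. GENCODE release 29 held 15531 of the identifiers, and the table's locus contained the GENCODE gene for 96.7% of these and for all 33 members, so GRCh38 positions are given. In the table, 20 members share a merged locus with another gene. Transcript matches to other genes came from BLAST 2.17.0 with at least 90% identity over 300 bases. Promoters came from RefSeq, whose start can differ from GENCODE's, and 30 members matched. CTSB, HEXA and LAMP2 had no entry. The calling rule (Python 3.11.15) was tested on simulated data.

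All 33 members are named. From each other list the text names genes called at 2-fold, at most 6, or the 2 largest folds where fewer were called. MAP1LC3A and MITF are named outside this rule as relatives of members, as are genes said to be chosen after their values were seen. The members, lists and rules were chosen with earlier results of these data known. Alternatives were other pseudocounts, filters, thresholds and scalings, among them equal sums, added after seeing the data, and the authors' q-values.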

Additional observations from a re-analysis of the deposited data

How the results depend on the processing

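No paired analysis was possible because each group holds 1 library, and for the same reason no replicate could be left out. The count of members called higher was 3 as reported, 2 with a pseudocount of 5 and with each of the 4 other scalings, and 3 with a pseudocount of 0.1, with no filter and with a filter of 5 FPKM. The call lost in each of these 5 settings was that of SQSTM1. At 1.5-fold 6 members were higher and 1 lower, at 4-fold 0 were higher and 0 lower, and by q-values under 0.05 in the authors' deposited table there were 5 higher and none lower. The median log2 fold of the members lay between 0.06 and 0.19 under the other settings, apart from 0.032 with TPM scaling (each library rescaled to a sum of 1000000) and 0.031 with equal sums on the FPKM scale, an alternative chosen after seeing the data. These scalings moved the median of all tested genes by -0.10 and -0.098. TPM scaling also shrinks the pseudocount to 0.324 FPKM in the resistant and 0.300 in the parental library, so its counts do not reflect the scaling alone. At most 2 members changed sign under any scaling, each with a log2 fold of 0.04 or less in size as reported. Over all tested genes, 1076 were higher and 1029 lower with a pseudocount of 0.1, 220 and 114 with a pseudocount of 5, 466 and 282 with a filter of 5 FPKM, 790 and 1076 with TPM scaling, 506 and 659 with equal sums, 2020 and 1674 at 1.5-fold, and 61 and 59 at 4-fold, against 640 and 532 as reported. With TPM scaling, as with equal sums, the medians of the other autophagosome genes (-0.08), the other receptors (-0.01), the mTORC1 list (-0.0021) and the other lysosomal enzymes (-0.03) turned negative. The median of the other autophagosome genes was also negative with upper quartile scaling (-0.045) and with median ratio scaling (-0.0067). In the list of other lysosomal enzymes, 2 genes were lower with a pseudocount of 0.1 and with upper quartile, median ratio and equal sum scaling, and 3 with TPM scaling, against 1 as reported. The cause was not tested. With 1 library per group and unknown depth, the error of any single fold is unknown.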
